A study of Mus musculus with 6 samples.

Results

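The 10 genes described here encode the NF-κB transcription factor subunits (Nfkb1, Nfkb2, Rela, Relb and Rel), their ankyrin-repeat inhibitors (Nfkbia, Nfkbib, Nfkbie and the nuclear Nfkbiz) and the ubiquitin-editing enzyme A20 (Tnfaip3). They were taken by gene symbol from a table of 26359 genes and loci, and all 10 were found. The measurements come from RNA sequencing of poly(A) mRNA in AML12 cells, a non-tumorigenic hepatocyte line established from mice that carry a human TGF-α transgene. Stably transfected lines are described, and the cell line label places 3 libraries under sh-NC, taken here as the control, and 3 under sh-1, taken as the knockdown of Tm9sf1, the gene the series is about. The sample titles use Sh-2 for the sh-1 libraries and the bare line name for the sh-NC libraries, so whether the control cells carried a hairpin is not certain. The labels name no stimulus or other treatment for either group, and no batch or date. They do not say whether each library came from its own culture, so a p-value here reflects only library-to-library spread, possibly technical in origin.

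NF-κB proteins work as dimers. In resting cells IκB proteins hold the dimers in the cytoplasm. Signals from receptors such as those for TNF and IL-1 activate the IκB kinase complex, which marks IκBα, IκBβ and IκBε for degradation and frees dimers such as p65:p50 to enter the nucleus. Several products of the induced genes, IκBα and A20 among them, feed back to end the response. In the liver the pathway drives acute phase and chemokine genes and protects hepatocytes from TNF-induced death.

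Total counts were 36997329 to 51334798 per library. Tm9sf1 itself, the targeted gene, had CPM (counts per 1000000, TMM-scaled) of 47.2, 53.4 and 45.8 in sh-NC and 35.3, 36.8 and 36.5 in sh-1 (edgeR adjusted p = 0.00186, log2 fold change -0.43 with SE 0.10). After the correction for transcript GC content and length that is described below its log2 fold change was -0.09 (edgeR adjusted p = 0.358). Its exons overlap Gm49378 on the same strand and Gm49747 on the other. Of 12 hepatocyte markers, the keratins Krt8 and Krt18 were abundant (5499 and 5189 CPM in sh-NC), while albumin (Alb) averaged 4.43 CPM and Asgr1 0.0403 CPM. The summed level of the 12 was 9713 to 11957 CPM in sh-NC and 6598 to 8243 CPM in sh-1, most of it Krt8 and Krt18. Of the 12, 8 were called lower and 2 higher, Hnf4a (150 and 337 CPM) and Afp (1.54-fold). Of 8 macrophage markers 5 were below 1 CPM in every library, with Tyrobp and Clec4f at 0, and their sum was 170 to 177 CPM in sh-NC and 164 to 184 CPM in sh-1, nearly all of it from Cd14. Stellate and endothelial markers summed to at most 10.1 and 2.23 CPM in any library, with Lrat and Lyve1 at 0. The 6 biliary markers summed to 1822 to 2051 CPM in sh-NC and 3386 to 3831 CPM in sh-1, a rise that came from Spp1 (148 and 2118 CPM). Of the other biliary markers, Krt7 (774 and 436 CPM) and Sox9 (75.6 and 24.5 CPM) were called lower and Krt19 (969 and 1057 CPM) was not called. The part of these shifts in the results below was not tested. In bulk RNA, fewer cells of a type and less RNA per cell cannot be told apart.

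Several of the 10 genes are known targets of NF-κB themselves, and κB-like sequences just before their start sites are shown here because the members with such a site include the feedback genes that follow. Sequences are from the RefSeq promoter table (GRCm38.p6), which matched 7 of the 10 members in 10 start-site windows; Nfkb1, Relb and Nfkbiz had no entry. The 250 bases before each start were searched on both strands for a strict form of the κB consensus, which uses ambiguity letters and is narrower than other published forms, and for the wider pattern GGGNNNNNCC. The wider pattern was present in 9 of the 10 windows and in 45.8% of all 32851 windows of the table. The strict consensus, all matches of which also match the wider pattern, was present in 5 of the 10 windows, from 4 members, and in 5.00% of all windows. The 30 bases around each consensus match are given 5′ to 3′ on the strand of the gene, with the match in capitals.

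Nfkb2, chr19:46304688-46304717, plus strand: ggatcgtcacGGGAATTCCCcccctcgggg
Nfkb2, chr19:46304716-46304745, plus strand: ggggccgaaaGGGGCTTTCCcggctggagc
Nfkb2, a downstream start site, chr19:46305695-46305724, plus strand: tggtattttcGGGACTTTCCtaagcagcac
Rel, chr11:23771042-23771071, minus strand: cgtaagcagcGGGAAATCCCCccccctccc
Nfkbia, chr12:55492657-55492686, minus strand: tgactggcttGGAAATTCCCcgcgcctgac
Tnfaip3, chr10:19015403-19015432, minus strand: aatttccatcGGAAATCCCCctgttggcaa

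The capitals in Rel cover overlapping matches 92 to 82 bases before the start, and the first Nfkb2 match reads the same on both strands. The match in Nfkbia lies 29 to 20 bases before the start and that in Tnfaip3 12 to 3 bases before it. A match is a description of the letters and no evidence of binding, and Rela, Nfkbib and Nfkbie had no match to the strict form in these windows. Looser published forms, which were not searched, would also take in sites such as GGGGGATTCC, 106 to 97 bases before the Nfkbie start. The wider pattern searched here did match that site. The whole window before the Nfkbia start (chr12:55492648-55492897, minus strand) is printed as the longer context of an inhibitor gene, again with the consensus match in capitals.

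Nfkbia: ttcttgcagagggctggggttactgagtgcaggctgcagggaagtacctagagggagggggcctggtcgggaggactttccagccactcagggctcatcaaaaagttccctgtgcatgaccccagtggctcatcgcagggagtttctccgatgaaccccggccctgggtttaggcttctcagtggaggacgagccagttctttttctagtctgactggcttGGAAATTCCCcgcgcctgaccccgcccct

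The subunit genes moved in opposite directions. In sh-1, Nfkb1 was 2.30-fold higher and Rela was lower at 0.406 of its sh-NC level. Rel was 2.53-fold higher, and Nfkb2 and Relb had smaller falls. None of the calls of Rel, Nfkb2 and Relb held once GC content and length were corrected for. Among the inhibitors, Nfkbiz rose 4.15-fold and Nfkbia 1.22-fold, Nfkbib fell to 0.684 of its level before that correction and Nfkbie did not pass the test. Tnfaip3 rose 1.65-fold. By edgeR's quasi-likelihood test with Benjamini-Hochberg adjustment over all 13197 genes tested, at a threshold of 0.05, all 10 members passed the filter on low counts, and 9 of the 10 were called, 5 higher and 4 lower in sh-1. Of all genes tested, 65.5% passed the same test, 33.3% as higher and 32.2% as lower, so most genes differed between these groups. The libraries of the groups did not overlap in 9 members and in 70.3% of all genes. The median of the absolute log2 fold changes was 0.67 for the members and 0.66 for all genes tested. Nfkbiz stood farthest out, with an absolute fold change larger than that of 91.4% of tested genes, followed by Rel (78.6%), Rela (77.5%) and Nfkb1 (74.4%).

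**Figure D1:**
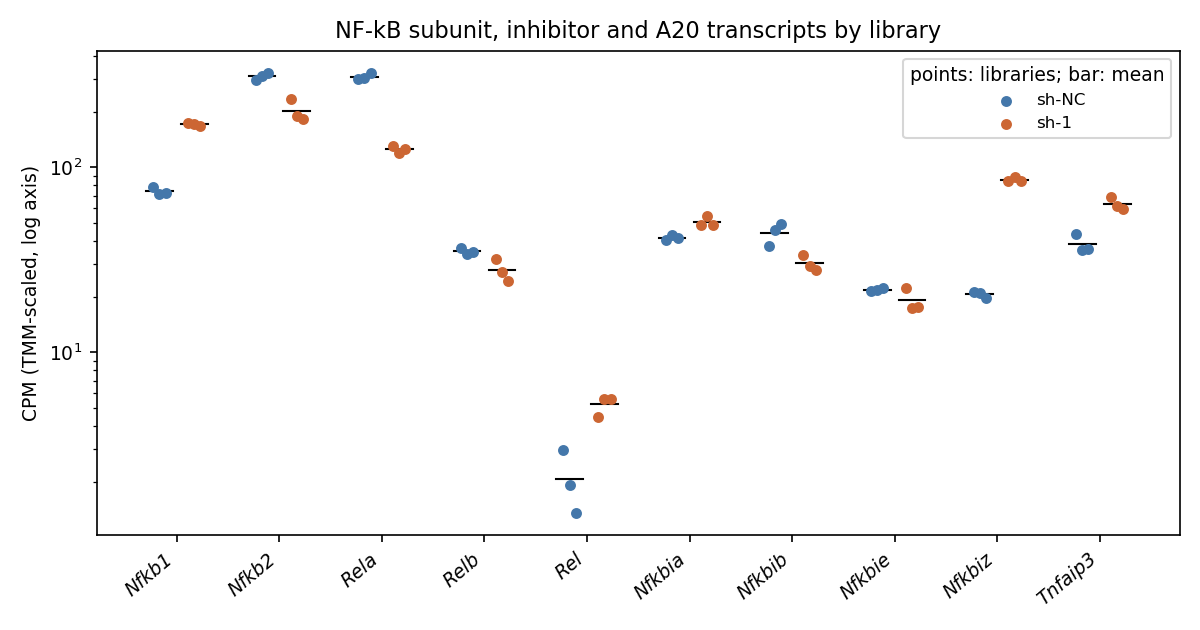
CPM of the 10 genes in each of the 6 libraries on a log axis, with points for libraries and bars for the mean of 3. The sh-1 libraries lie above all sh-NC libraries for Nfkb1, Rel, Nfkbia, Nfkbiz and Tnfaip3 and below them for Nfkb2, Rela, Relb and Nfkbib, and Nfkbie overlaps.

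Rela encodes p65, the subunit that carries the main transactivation domain of the canonical dimer (chromosome 19, 5637483 to 5648130, GRCm38, plus strand, protein coding). Its level was 301, 303 and 325 CPM in sh-NC and 131, 120 and 126 CPM in sh-1. The highest sh-1 library was therefore far below the lowest sh-NC library. The means were 309 ± 13.3 CPM and 126 ± 5.57 CPM (SD, n = 3 each), and the difference passed the test (edgeR adjusted p = 5.4e-08, log2 fold change -1.30 with SE 0.08).

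Nfkb1 encodes p105, the precursor of p50, the usual partner of p65 (chromosome 3, 135584655 to 135691547, minus strand). It measured 78.4, 72.0 and 73.0 CPM in sh-NC and 175, 171 and 167 CPM in sh-1. The libraries of each group lay close together and the groups were well apart. The mean went from 74.4 ± 3.46 to 171 ± 3.71 CPM (SD, n = 3 each; edgeR adjusted p = 8.49e-08, log2 fold change 1.20 with SE 0.08).

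Nfkb2 encodes p100, which acts as an inhibitor until it is processed to p52 in the non-canonical branch of the pathway (chromosome 19, 46304320 to 46312385, plus strand). It measured 298, 313 and 324 CPM in sh-NC and 233, 189 and 183 CPM in sh-1. All sh-1 libraries were lower, the first of them least so, with means of 312 ± 12.8 and 202 ± 27.4 CPM (SD, n = 3 each; edgeR adjusted p = 0.000109, log2 fold change -0.63 with SE 0.10). The correction for GC content and length ended this call. Exons of Psd, at 11.8 to 14.1 CPM in every library, overlap those of Nfkb2 on the other strand. So do exons of AC114539.1, whose level is not given here. Whether counting used the strand is not given in the sources used here.

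Relb encodes RelB, the partner of p52 (chromosome 7, 19606217 to 19629438, minus strand). Its level was 36.7, 34.2 and 34.7 CPM in sh-NC and 32.0, 27.2 and 24.2 CPM in sh-1, a small gap with no overlap. It was called lower (edgeR adjusted p = 0.0224, log2 fold change -0.34 with SE 0.12), but the correction for GC content and length turned the direction, to 0.30, called higher. Leaving out sh-NC replicate 3 ended this call (edgeR adjusted p = 0.0501), as did leaving out sh-1 replicate 2 (edgeR adjusted p = 0.0833) or sh-1 replicate 3 (edgeR adjusted p = 0.12), where the log2 fold change lay between -0.35 and -0.24.

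Rel encodes c-Rel, a subunit best known from lymphocytes (chromosome 11, 23736847 to 23770970, minus strand). It was the least abundant member, with 122, 73 and 65 counts in sh-NC and 187, 240 and 215 counts in sh-1. These are 2.95, 1.92 and 1.35 CPM in sh-NC and 4.48, 5.58 and 5.60 CPM in sh-1. The spread within sh-NC was wide, but the lowest sh-1 library exceeded the highest sh-NC library. It was called higher (edgeR adjusted p = 0.0014, log2 fold change 1.34), and its SE of 0.29 was the largest of the 10 genes. This call, too, was lost after the correction.

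Because Rela fell and Nfkb1 rose, the make-up of the subunit transcripts differed between the groups. Levels were compared between genes as FPKM, which the authors scaled for length and depth, and these shares are given as a description with no test. Rela made up 45.3, 45.1 and 45.9% of the summed FPKM of the 5 subunit genes in sh-NC and 26.4, 27.4 and 29.2% in sh-1. The share of Nfkb1 was 7.92, 7.24 and 7.26% in sh-NC and 23.6, 26.3 and 25.8% in sh-1. Nfkb2 had 40.6 ± 0.742% in sh-NC and 39.2 ± 2.20% in sh-1 (SD, n = 3 each), and Relb 6.43 ± 0.371% and 7.52 ± 0.531%. The ratio of Nfkb1 to Rela in FPKM was 0.175, 0.161 and 0.158 in sh-NC, against 0.892, 0.960 and 0.885 in sh-1. Rela FPKM thus exceeded that of Nfkb1 in every library, by a wide margin in sh-NC and a narrow one in sh-1. The 5 genes summed to 235 ± 4.08 FPKM in sh-NC and 165 ± 9.62 FPKM in sh-1 (SD, n = 3 each). These shares and sums were not corrected for GC content. With that correction the fall of Nfkb2 was not seen and that of Rela was smaller.

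**Figure D2:**
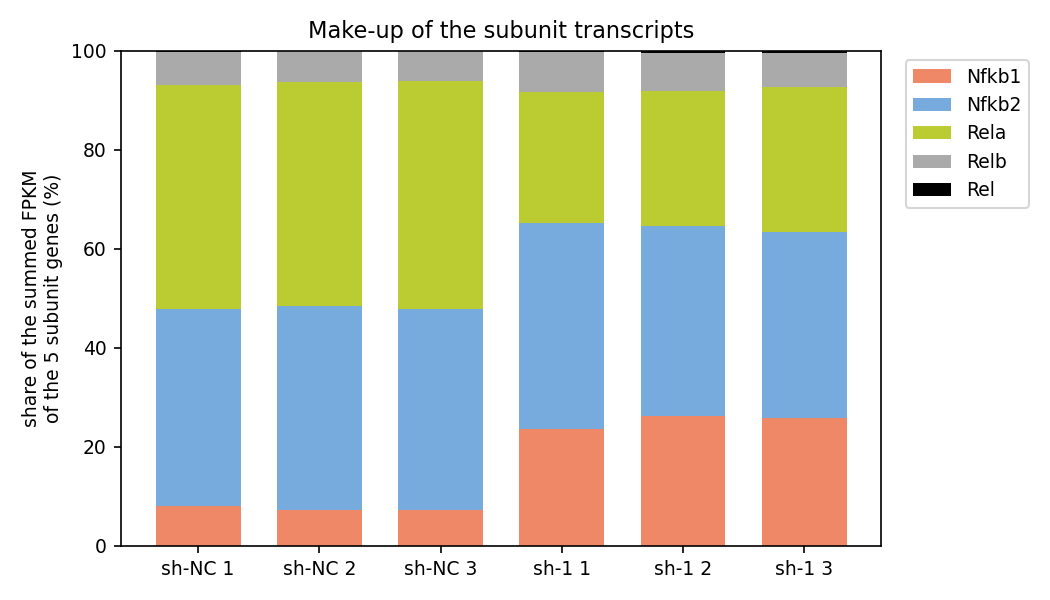
Share of each of the 5 subunit genes in their summed FPKM, one bar per library, in percent. The Rela part shrinks from at least 45.1% in sh-NC to between 26.4 and 29.2% in sh-1 while the Nfkb1 part grows from at most 7.92% to at least 23.6%.

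Nfkbiz encodes IκBζ, an atypical inhibitor protein of the nucleus that acts with p50 as a co-activator at a subset of inflammatory genes (chromosome 16, 55811375 to 55838899, minus strand). It had 21.3, 20.9 and 19.8 CPM in sh-NC and 84.4, 88.4 and 84.0 CPM in sh-1. The replicates of each group agreed closely and the groups stood wide apart. The mean went from 20.6 ± 0.789 to 85.6 ± 2.43 CPM (SD, n = 3 each; edgeR adjusted p = 8.5e-09, log2 fold change 2.05 with SE 0.09), the largest change of the 10 genes.

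Nfkbia encodes IκBα, the rapidly resynthesised inhibitor of p65:p50 (chromosome 12, 55489410 to 55492647, minus strand). Its level was 40.4, 43.0 and 41.7 CPM in sh-NC and 48.8, 54.8 and 48.7 CPM in sh-1. The groups did not overlap, but the gap was narrow, and the gene was called higher (edgeR adjusted p = 0.0172, log2 fold change 0.28 with SE 0.09). Without sh-1 replicate 2 the value was 0.24 and the call was lost (edgeR adjusted p = 0.0843).

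Nfkbib encodes IκBβ, which is resynthesised more slowly than IκBα (chromosome 7, 28758251 to 28767512, minus strand). It measured 37.6, 46.0 and 49.3 CPM in sh-NC and 33.6, 29.3 and 27.9 CPM in sh-1. The lowest sh-NC library and the highest sh-1 library were close to each other. The gene was called lower (edgeR adjusted p = 0.00168, log2 fold change -0.55 with SE 0.12), a call that the correction ended. Exons of Sirt2, at 64.1 to 84.5 CPM, overlap those of Nfkbib on the other strand, so the level of Nfkbib is uncertain if counting ignored the strand. Sirt2 itself had a log2 fold change of 0.08 (edgeR adjusted p = 0.525). After the correction it was at 0.43 and called higher (edgeR adjusted p = 0.000186).

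Nfkbie encodes IκBε, a further cytoplasmic inhibitor that is induced late (chromosome 17, 45555703 to 45563169, plus strand). It had 21.5, 21.7 and 22.3 CPM in sh-NC and 22.2, 17.4 and 17.7 CPM in sh-1, so one sh-1 library lay among the sh-NC libraries. It was not called (edgeR adjusted p = 0.199, log2 fold change -0.19 with SE 0.13). Without that library, sh-1 replicate 1, it was -0.31 (edgeR adjusted p = 0.0484). The same library was also the highest of its group for Nfkb1, Nfkb2, Rela, Relb, Nfkbib and Tnfaip3, but not for Rel, Nfkbia or Nfkbiz.

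The 3 cytoplasmic inhibitors together reached 62.4, 67.5 and 67.8 FPKM in sh-NC and 62.8, 65.0 and 60.2 FPKM in sh-1, with overlap. Nfkbia supplied 37.7 ± 2.26% of that sum in sh-NC and 50.5 ± 2.92% in sh-1 (SD, n = 3 each). Set against the summed subunits, the ratio of inhibitor to subunit FPKM was 0.262, 0.293 and 0.286 in sh-NC and 0.358, 0.405 and 0.382 in sh-1. All sh-1 libraries were above all sh-NC libraries in this ratio, in which the subunit sum in FPKM had fallen. The ratio counts Nfkb2 wholly as a subunit, although its product p100 acts as an inhibitor until it is processed. It is therefore a ratio of transcripts and not a measure of the balance of inhibitor and factor. Neither the sums nor the ratio were corrected for GC content. With that correction, the log2 fold changes of the subunits were -0.70 for Rela, -0.06 for Nfkb2, 1.47 for Nfkb1, 0.30 for Relb and 0.38 for Rel. Those of the inhibitors were 0.53 for Nfkbia, 0.01 for Nfkbib and 0.24 for Nfkbie. Whether the ratio would still differ was not tested.

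Tnfaip3 encodes A20, which edits ubiquitin chains on signalling proteins upstream of the kinase complex and so ends the response (chromosome 10, 19000910 to 19015657, minus strand). It measured 43.6, 35.8 and 36.4 CPM in sh-NC and 69.2, 61.9 and 59.7 CPM in sh-1. Every sh-1 library was above every sh-NC library, and the mean went from 38.6 ± 4.32 to 63.6 ± 5.00 CPM (SD, n = 3 each; edgeR adjusted p = 7.16e-05, log2 fold change 0.72 with SE 0.11).

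Ordered by FPKM, the sh-NC libraries had Rela (107 ± 2.61) and Nfkb2 (95.4 ± 0.784) at the top, then Nfkbib (32.6 ± 3.40), Nfkbia (24.8 ± 0.667), Nfkb1 (17.6 ± 1.13), Relb (15.1 ± 1.01), Tnfaip3 (8.59 ± 1.50), Nfkbie (8.45 ± 0.145), Nfkbiz (5.34 ± 0.383) and Rel (0.261 ± 0.112 FPKM, SD, n = 3 each). Tnfaip3 and Nfkbie were the only neighbours in this order whose libraries overlapped. In sh-1 the order was Nfkb2 (64.6 ± 7.49), Rela (45.5 ± 1.32), Nfkb1 (41.5 ± 0.726), Nfkbia (31.7 ± 2.53), Nfkbib (23.3 ± 1.00), Nfkbiz (23.2 ± 0.941), Tnfaip3 (14.6 ± 0.886), Relb (12.4 ± 1.54), Nfkbie (7.70 ± 0.915) and Rel (0.688 ± 0.0970 FPKM, SD, n = 3 each). Here the libraries of Nfkbib and Nfkbiz overlapped, as did those of Tnfaip3 and Relb. Parts of this order depend on the length scaling: as CPM per kilobase of the longest protein-coding transcript, Nfkbia (26.4 ± 0.810) was above Nfkbib (21.5 ± 2.93) in sh-NC, and the libraries of Nfkb2 and Rela overlapped in sh-1. In that unit the sh-1 libraries of Nfkbiz (20.4 to 21.5) all lay above those of Nfkbib (13.6 to 16.3).

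Each member was also compared after each library's trend of counts along transcript GC content and length had been removed. The GC content of the longest protein-coding transcript ranged from 42.5% for Rel to 61.1% for Relb, and the 4 members that were lower in sh-1 were the 4 with the highest values, 58.8 to 61.1%. In the corrected fit 67.7% of the 11956 genes with a GC value were called, compared with 6 of the 10 members. Nfkbiz (2.09), Nfkb1 (1.47), Tnfaip3 (0.69) and Nfkbia (0.53) were called higher, as before, and Rela was called lower at -0.70 (SE 0.06, edgeR adjusted p = 2.97e-07). Relb, now called higher, had an SE of 0.10 and an edgeR adjusted p = 0.0171. Nfkb2 was at -0.06 (edgeR adjusted p = 0.519) and Nfkbib at 0.01 (edgeR adjusted p = 0.948), neither of them called. Rel was at 0.38 (SE 0.24, edgeR adjusted p = 0.177) and Nfkbie at 0.24 (edgeR adjusted p = 0.0541). Thus 5 of the 9 calls held in both fits, those of Nfkb1, Rela, Nfkbia, Nfkbiz and Tnfaip3. Of all genes, 5876 kept their call in both fits, beside 8648 called in the first fit, which also tested genes without a GC value. By construction the correction also removes any change that genes of like GC content share.

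**Figure D3:**
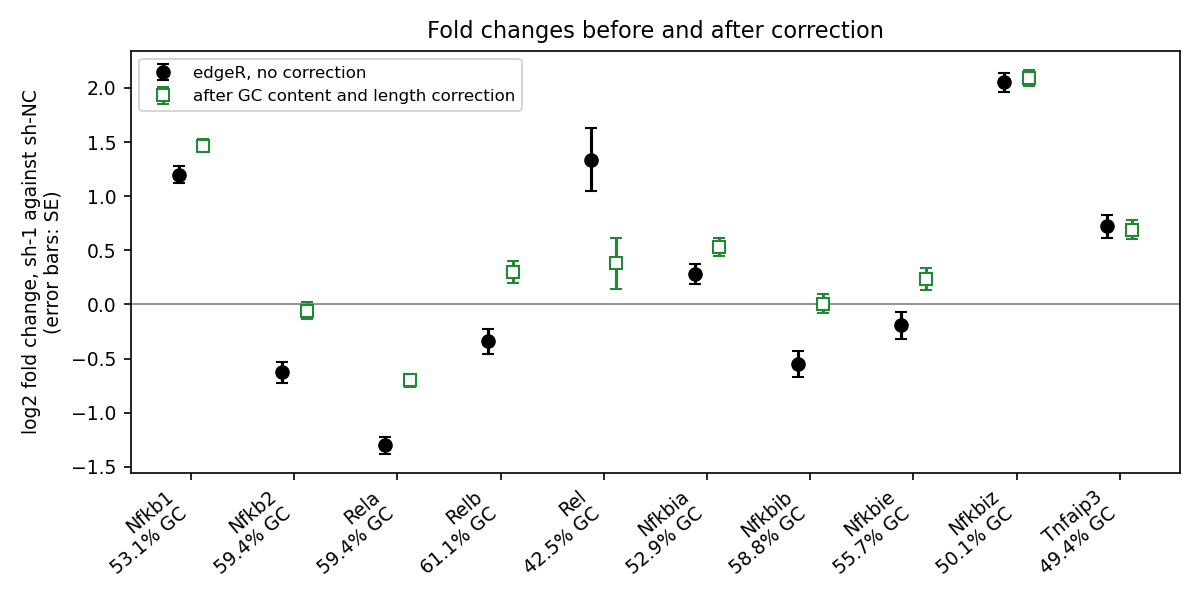
Log2 fold change of each member, sh-1 against sh-NC, with SE, before (filled) and after (open) the correction for GC content and length; the GC content of the transcript stands under each name. Nfkbiz, Nfkb1 and Tnfaip3 keep values between 0.69 and 2.09, Rela goes from -1.30 to -0.70, and Nfkb2, Nfkbib, Relb and Nfkbie move from below 0 to about or above it.

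The genes with the profile most like that of Nfkbiz over the 6 libraries, by Pearson's r of log2 CPM, were Ephb6, Def8 and Gphn (r of 0.99947, 0.99937 and 0.99936). For Rela they were Rbm22, Cybc1 and Sesn2 (r of 0.99978, 0.99977 and 0.99974). These are descriptions over 6 libraries in 2 groups: of 8587 genes compared, 1799 had an r over 0.95 with Nfkbiz and 2045 with Rela.

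The rest of the pathway moved in both directions. Of 127 other genes in 7 lists of receptors, ligands, adaptors, kinase and ubiquitin machinery, negative regulators, nuclear cofactors and target genes, 107 could be tested, and 41 were higher and 40 lower in sh-1. These are 38.3% and 37.4% of those tested, beside 33.3% and 32.2% of all genes, and the counts for each list below stand against the same background. Their median log2 fold change was -0.01, compared with -0.00065 for all genes tested.

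Among receptors, 4 of 11 tested genes were higher and 5 lower, with a median of -0.03. Il1r1, the signalling receptor of IL-1, was at 0.363, 0.157 and 0.291 CPM in sh-NC and 4.53, 7.05 and 8.91 CPM in sh-1 (edgeR adjusted p = 4.42e-07, log2 fold change 4.63 with SE 0.37). Its partner Il1rap was too low to test. Tnfrsf9 and Tlr3, a sensor of double-stranded RNA, rose by 1.20 and 1.64 on the log2 scale. Tnfrsf1a, the main TNF receptor, fell from 222 ± 6.15 to 120 ± 12.5 CPM (SD, n = 3 each; edgeR adjusted p = 2.53e-06, log2 fold change -0.89 with SE 0.09). Ltbr, the lymphotoxin receptor that feeds the non-canonical branch, was at -0.91 and Tnfrsf12a, the TWEAK receptor, at -1.30. After the correction these 6 genes stayed on the same side, with Il1r1 at 3.83, Tnfrsf9 at 1.01, Tlr3 at 0.58, Tnfrsf1a at -0.45, Ltbr at -0.29 and Tnfrsf12a at -0.85.

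Of 15 ligand genes 9 were too low to test, Tnf, Il1a and Il1b among them, and of the 6 others 4 were higher and 2 lower (median 1.21). Il33, an alarmin of the IL-1 family, rose from 10.6 ± 2.30 to 55.5 ± 2.63 CPM (SD, n = 3 each; edgeR adjusted p = 5.75e-08, log2 fold change 2.39 with SE 0.14). Tnfsf12, which encodes TWEAK, rose by 0.95, and Hmgb1 by 1.48, although reads of Hmgb1 may be shared with its many pseudogenes. Tnfsf13b and Ltb were below 1 CPM in every library and were called lower, with edgeR adjusted p = 0.0216 and 0.0278. Corrected values were 1.57 for Il33, 1.45 for Tnfsf12 and 0.46 for Hmgb1, and Ltb was no longer called.

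The 21 adaptors and kinases between receptors and the IκB kinase complex were all tested, with 6 higher and 7 lower and a median of -0.05. Myd88, the adaptor of IL-1 and Toll-like receptors, was at 76.1, 75.5 and 77.8 CPM in sh-NC and 28.8, 23.0 and 23.6 CPM in sh-1 (edgeR adjusted p = 9.82e-08, log2 fold change -1.60 with SE 0.11). Its kinases moved apart, with Irak4 at -0.82 and Irak1 at 0.88. Traf1 fell by 1.52 on the log2 scale, Malt1, a paracaspase, rose by 1.73 and the kinase gene Ripk1 rose by 0.79. Corrected values were -1.30 for Myd88, -0.85 for Irak4, 1.15 for Irak1, -1.18 for Traf1 and 1.03 for Malt1, while Ripk1 was at 0.14 and not called.

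Of 16 genes of the kinase complex and of ubiquitin attachment, 8 were higher and 5 lower, with a median of 0.13. Chuk, which encodes IKKα, rose from 39.3 ± 1.95 to 86.3 ± 7.97 CPM (SD, n = 3 each; edgeR adjusted p = 7.34e-07, log2 fold change 1.13 with SE 0.10) but was at 0.20 and not called after the correction. Of 4 listed genes of the ligase that recognises phosphorylated IκB, Cul1 rose by 1.55 and Skp1a by 1.03, whereas the substrate receptor Fbxw11 was at -0.90 and the other one, Btrc, at -0.02 was not called (edgeR adjusted p = 0.88). Rnf31, the catalytic subunit of the linear ubiquitin ligase, fell by 1.32 and Ube2v1 by 0.37 on the log2 scale. After the correction Cul1 was at 0.88, Skp1a at 0.41, Fbxw11 at -1.10, Btrc at -0.74, called lower, and Rnf31 at -0.76, and Ube2v1 at 0.02 was not called.

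Among 18 tested negative regulators and partners of A20, 6 were higher and 7 lower (median -0.08). Zc3h12a, which encodes Regnase-1, an RNase that degrades inflammatory mRNAs, was at 11.5, 10.8 and 11.4 CPM in sh-NC and 59.8, 52.9 and 52.0 CPM in sh-1 (edgeR adjusted p = 1.33e-08, log2 fold change 2.29 with SE 0.11). Cyld, another deubiquitinase of the pathway, and Tax1bp1, an adaptor of A20, rose by 1.19 and 2.03. Otud7b, Tollip and Socs1 fell by 1.18, 0.97 and 2.11 on the log2 scale. All 6 kept their call after the correction, with Zc3h12a at 2.80, Cyld at 0.30, Tax1bp1 at 1.17, Otud7b at -1.43, Tollip at -0.91 and Socs1 at -1.52.

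Of 11 tested nuclear cofactors 3 were higher and 4 lower (median 0.02). Hdac1 and Hdac3, which encode histone deacetylases, rose by 0.71 and 0.29 and Sirt1 by 0.75. Nfkbil1 was at -1.17 and Rps3 at -0.67, with reads that pseudogenes may share. Corrected, Sirt1 was at 0.03 and not called, and Hdac1, Hdac3, Nfkbil1 and Rps3 kept their calls.

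Textbook target genes outside the 10 members were evenly divided, with 10 higher and 10 lower of 24 tested and a median of -0.0010. The chemokine genes Cxcl5, Cxcl1 and Ccl2 rose by 4.44, 2.21 and 2.25 on the log2 scale. Gadd45b, which restrains JNK signalling, fell from 90.4 ± 10.4 to 26.5 ± 0.973 CPM (SD, n = 3 each; edgeR adjusted p = 4.76e-08, log2 fold change -1.77 with SE 0.10). The macrophage growth factor gene Csf1 and the anti-apoptotic Bcl2l1 fell by 0.92 and 0.99. All 6 kept their call after the correction, at 3.29, 1.58, 1.40, -1.34, -0.58 and -0.55, and the median of the list was then -0.39.

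**Figure D4:**
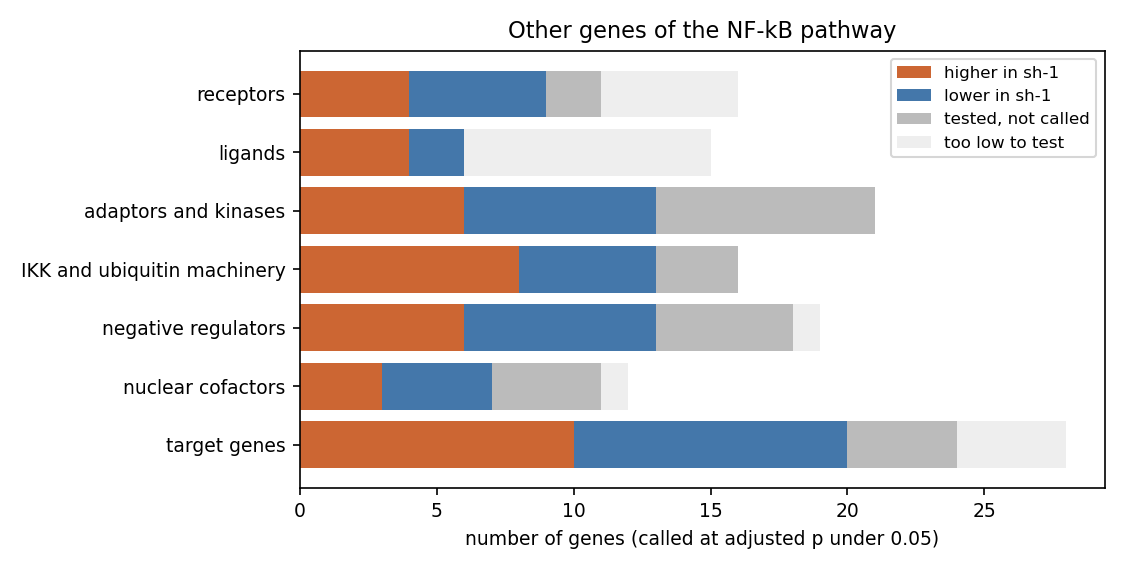
Number of genes in 7 lists of the NF-κB pathway that were higher, lower or not called in sh-1 at an edgeR adjusted p under 0.05, or too low to test. Most lists hold similar numbers of rises and falls, such as 10 and 10 for target genes, and 9 of 15 ligand genes were too low to test.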

How the data were processed

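Expression was measured by RNA sequencing of oligo(dT)-enriched mRNA in 6 libraries of AML12 cells. The submitters' processing notes name HISAT2, StringTie and the GRCm38 build, and the sources used here do not name the counting tool. The deposited table holds raw whole-number counts per gene, per the file headers, and FPKM values scaled by the authors for length and depth, per the file headers. Of 26369 rows, 10 without an identifier were left out, and 27 symbols stored as dates were restored from identifiers. The authors' own A-against-B comparison is not used here, since its samples are not given.

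Counts were tested in R 4.3.3 with edgeR 4.0.16 (filterByExpr, TMM, group only, robust quasi-likelihood, two-sided, Benjamini-Hochberg over 13197 genes). SE was derived from the F statistic, and CPM is TMM-scaled. Libraries of the same group differed beyond counting noise (chi-square per degree of freedom 13.9 to 48.1). Alternatives were RLE and upper-quartile scaling, DESeq2 1.42.0, other filters, leaving out each library, limma 3.58.1 on log2(FPKM + 1) and log2(FPKM + 0.1) for genes with a mean FPKM of at least 0.5, a replicate block, and an offset per library from natural splines of GC content and log2 length (5 and 4 degrees of freedom) of the longest protein-coding transcript in GENCODE M21. The edgeR step was tested on simulated counts. Positions are from GENCODE M21 (GRCm38).

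The members and lists were chosen with earlier results of these data known. Named genes are the 10 members, Tm9sf1, up to 3 rises and 3 falls with the smallest adjusted p in each list, and the 3 genes most like the members with the largest rise and fall (mean log2 CPM of at least 3). One nuclear cofactor that the rule names is not reported here. The cell type markers, and the few other genes named for their low level or exon overlap, were chosen for naming after their values were seen.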

Additional observations from a re-analysis of the deposited data

How the results depend on the processing

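Nfkb1, Rela, Nfkbiz and Tnfaip3 kept their direction and call under all 16 alternatives. The count of members called lower, 4 as reported, was 1 with the GC and length correction, with or without a replicate block. Of all 11956 genes in the corrected fit, 4154 were called lower, and 3817 with the block as well. Members called lower were 3 to 5 when single libraries were left out, and those called higher 4 to 5. In those fits 3888 to 4254 of all genes were called lower and 4016 to 4494 higher, of 13547 to 13670 tested. With the correction, Relb reversed to 0.30, Nfkbib to 0.0070 and Nfkbie to 0.24; with the correction and the replicate block together they were at 0.19, 0.023 and 0.15. Relb also lost its call with upper-quartile scaling (edgeR adjusted p = 0.0588) and in limma on FPKM (adjusted p = 0.0509 and 0.0664), where Rel, below the filter, was not tested. The last numbers of the titles are shared by both groups only for 2 and 3. Across genes the deviations of those pairs had r of 0.03 and -0.05, and pairs with unlike numbers had r of -0.11 to 0.08. With only 2 such pairs, whether libraries of the same number belong together cannot be told. With the title number as a replicate block, the group effect rests on the 2 shared numbers, since a library with an unshared number fills its own block. In that fit 4 members were called higher and 4 lower, beside 3842 and 3623 of all 13197 genes. The call lost was that of Nfkbia (0.31, edgeR adjusted p = 0.0715), and 37 other pathway genes were called in each direction. Counts for other pathway genes were 36 to 44 higher and 33 to 41 lower under the alternatives run for them (all but limma). The GC and length correction changed which genes made up these totals. Calls kept, higher then lower, were 4 of 4 and 5 of 5 for receptors and 4 of 4 and 1 of 2 for ligands. They were 3 of 6 and 6 of 7 for adaptors and 4 of 8 and 2 of 5 for kinase and ubiquitin genes. Negative regulators kept 4 of 6 and 5 of 7, and nuclear cofactors 2 of 3 and 3 of 4. Targets kept 9 of 10 and 10 of 10. Among kinase and ubiquitin genes and targets, some calls turned to the opposite direction. As CPM per kilobase of the longest protein-coding transcript instead of FPKM, the Nfkb1 to Rela ratio was 0.159 in sh-NC and 0.899 in sh-1. The inhibitors per subunits were then 0.248 and 0.357, and the shares of the subunits in sh-NC and sh-1 were 49.7 and 30.2% for Rela, 7.90 and 27.1% for Nfkb1, 35.3 and 34.0% for Nfkb2 and 6.96 and 8.17% for Relb. The causes of these shifts were not tested. Depth limits Rel most, with 65 to 240 counts per library.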
